A study of Mus musculus with 32 samples.

Results

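The macrophage genes are 10 listed mouse genes, C1qa, C1qb, C1qc, Csf1r, Tyrobp, Fcer1g, Lyz2, Aif1, Adgre1 and Ptprc, followed through 32 RNA-seq libraries of the embryonic kidney. They were listed as general macrophage genes and were found by matching Ensembl gene IDs to symbols, which gave 10 of the 55806 IDs in the 4 count tables. All 10 were counted in all 32 libraries. None of the 320 values was 0, and the lowest was 7 reads.

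Macrophages enter the mouse kidney in the embryo, long before birth, and take up dead cells and debris there. C1qa, C1qb and C1qc encode the 3 chains of C1q, the recognition part of the first complement component, which tissue macrophages make in quantity. Csf1r is the receptor for CSF1 and IL-34, on whose signal most tissue macrophages depend. Tyrobp and Fcer1g are membrane adaptors with activating motifs that pass signals from receptors such as TREM2 and the Fc receptors. Lyz2 is a lysozyme of macrophages and neutrophils, Aif1 (IBA1) an actin-binding protein, Adgre1 the F4/80 antigen, and Ptprc (CD45) the phosphatase on all nucleated blood cells. Ptprc, Lyz2, Tyrobp and Fcer1g are therefore shared with other leukocytes.

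The study asked what gain-of-function mutations of ENL, a chromatin reader encoded by Mllt1, do to kidney development. In the Six2 line, E18.5 whole kidneys were Six2-TGCtg/+;Enl+/+ (ENL WT, n = 2), Six2-TGCtg/+;EnlT1/+ (Six2-ENL T1, n = 2) or Six2-TGCtg/+;EnlT3/+ (Six2-ENL T3, n = 2), and sorted cells were WT or T1 at E14.5 and at E18.5 (n = 3 each). In the Foxd1 line, all at E18.5, whole kidneys were Foxd1GC/+;Enl+/+ (WT) or Foxd1GC/+;EnlT1/+ (Foxd1-ENL T1, n = 3 each), and sorted cells were WT or T1 (n = 4 each). The T1 allele carries an NHL insertion and the T3 allele a small deletion in the YEATS domain, each heterozygous and switched on where Cre acted.

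Controls carried the Cre as well. Six2-TGC is a BAC transgene whose Six2 promoter drives Cre in nephron progenitors, so their descendants in the nephron carry the mutation too, and Foxd1-GC is a knock-in that drives Cre in stromal progenitors and removes 1 Foxd1 copy. Macrophages descend from blood precursors and belong to neither lineage. The sorted cells were tdTomato+ cells from crosses with a Cre-dependent reporter, isolated by flow cytometry. Cells of E14.5 kidneys were released with trypsin and those of E18.5 kidneys with collagenase II, so stage and dissociation cannot be told apart. Whether each library came from a separate embryo was not stated, so the p-values may measure technical spread in part, or only that in groups of 1 sex.

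Library totals ran from 106005614 to 157266455 counts in Six2 whole kidneys, from 67137194 to 79343015 in Foxd1 whole kidneys, from 115625561 to 137888792 in Six2 sorted cells at E14.5 and from 76510702 to 92026288 at E18.5. Foxd1 sorted cells were far shallower, at 2557443 to 3508381 counts, and their member counts lay between 7 and 299. The 33 pairs of libraries within groups correlated at 0.974 to 0.9985 and none were copies. The labels of the sorted cells fitted their markers, with summed nephron genes at 4331 to 5018 counts per 1000000 (CPM) in Six2 WT cells at E18.5 and summed stromal genes at 6227 to 8937 CPM in Foxd1 cells. Mllt1 itself differed between mutant and WT by -0.33 ± 0.08 to -0.02 ± 0.07 on the log2 scale, and the counts do not separate its alleles. Embryos of both sexes were mixed. All 6 Foxd1 whole kidneys expressed Xist, while all 8 Foxd1 sorted libraries expressed the Y-linked gene Ddx3y and had Xist at or below 0.403 CPM. In whole kidneys both T1 libraries of the Six2 line expressed Ddx3y and both T3 libraries Xist, and the WT group held 1 of each. Each group of Six2 sorted cells held libraries with Ddx3y and libraries with Xist. Groups with both kinds came from more than 1 embryo.

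The 3 C1q genes lie beside each other on the minus strand of chromosome 4 (GRCm38), with C1qb (ENSMUSG00000036905) at chr4:136880129-136886187, C1qc (ENSMUSG00000036896) at chr4:136889804-136893065 and C1qa (ENSMUSG00000036887) at chr4:136895917-136898803. Lyz2 (ENSMUSG00000069516) lies at chr10:117277331-117282321 and Ptprc (ENSMUSG00000026395) at chr1:138062861-138175708, both on the minus strand. RefSeq promoter windows (GRCm38.p6, 250 bases before and 50 after the start) were at hand for 6 members, C1qb, C1qc, Fcer1g, Lyz2, Aif1 and Ptprc. Because most members moved together, their windows were searched for AGGAAGT and its reverse complement ACTTCCT, part of the string known for PU.1, the ETS factor of macrophages, on both strands. The string was picked after the sequences were seen. It lay before a RefSeq start in 4 of the 6 genes, compared with 2525 of all 32851 windows (7.69%) and 2377 of 27025 genes. The 4 stretches are shown 5′ to 3′ on the strand of the gene, with the string in capitals. They lie at chr4:136886223-136886277 for C1qb, chr4:136893079-136893133 for C1qc, chr10:117282342-117282396 for Lyz2 and chr1:138175333-138175387 for Ptprc, all on the minus strand. In that order the string sits 53 to 47, 195 to 189, 100 to 94 and 58 to 52 bases before a RefSeq start. For Ptprc the stretch and that start lie inside the gene span given above, downstream of its 5′ end.
C1qb: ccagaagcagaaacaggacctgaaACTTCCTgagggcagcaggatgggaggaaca
C1qc: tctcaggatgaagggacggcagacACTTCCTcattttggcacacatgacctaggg
Lyz2: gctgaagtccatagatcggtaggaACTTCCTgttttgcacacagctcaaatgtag
Ptprc: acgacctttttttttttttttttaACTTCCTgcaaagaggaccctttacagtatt
The longer string GAGGAAGT, which contains the first, was found in 2.44% of windows and in 1 member, C1qc. These matches describe letters and were not tested as binding sites.

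In Six2 whole kidneys at E18.5, 8 of 10 members rose in T1, against a background of 2.88% of 23931 tested genes called higher and 4.88% called lower, where a call needed an adjusted p under 0.05 and at least 1.5-fold (edgeR quasi-likelihood test, Benjamini-Hochberg). In T3, 7 of 10 rose, against 4.34% of genes called higher and 5.28% called lower. The median member difference was 0.68 in T1 and 0.72 in T3 on the log2 scale, where that of all genes was -0.01 and -0.00. For 9 members all T1 and all T3 libraries lay above both controls, as they did for 17.6% of all genes tested. T1 and T3 were compared with the same 2 WT libraries, so both lists of values share their controls. In these bulk samples more cells of a type, more RNA per cell and less RNA of other cells cannot be told apart.

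The complement chains rose in both mutants. C1qa was at 11.6 and 11.9 CPM in WT, 18.8 and 21.7 CPM in T1, and 24.5 and 20.1 CPM in T3. Both mutants lay above both controls, by 0.79 ± 0.12 (log2 fold change ± SE, adjusted p = 0.00400) in T1 and 0.92 ± 0.12 (adjusted p = 0.00167) in T3. C1qb went from 13.3 and 13.6 CPM to 20.1 and 22.8 CPM in T1 and 25.1 and 21.3 CPM in T3, by 0.68 ± 0.11 (adjusted p = 0.00502) and 0.79 ± 0.11 (adjusted p = 0.00217). C1qc, the member with the largest change in T3, went from 10.7 and 11.1 CPM to 16.8 and 21.5 CPM in T1 and 27.3 and 22.2 CPM in T3. Its log2 fold change was 0.81 ± 0.14 (adjusted p = 0.00804) in T1 and 1.18 ± 0.14 (adjusted p = 0.00123) in T3.

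Csf1r, the growth factor receptor (ENSMUSG00000024621, chr18:61100598-61132149, plus strand), stood apart from the other members. It was at 44.1 and 41.2 CPM in WT, 43.6 and 44.3 CPM in T1, and 44.8 and 43.7 CPM in T3. The groups overlapped, and the log2 differences were 0.04 ± 0.06 (adjusted p = 0.735) and 0.05 ± 0.06 (adjusted p = 0.620). Its exons share 15.12% of their length with Hmgxb3, a gene on the other strand. The counting did not use strand, so reads in the shared stretches cannot be told apart. Hmgxb3 was at 40.8 to 44.6 CPM in these 6 libraries.

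Both adaptors rose, Tyrobp (ENSMUSG00000030579, chr7:30413760-30417585, plus strand) and Fcer1g (ENSMUSG00000058715, chr1:171229572-171234365, minus strand). Tyrobp was at 4.51 and 4.28 CPM in WT, 6.21 and 7.84 CPM in T1, and 7.84 and 6.73 CPM in T3. Fcer1g was at 4.55 and 4.01 CPM in WT, 6.31 and 7.23 CPM in T1, and 7.28 and 6.65 CPM in T3. All mutant libraries lay above both controls, and the 4 log2 fold changes lay between 0.66 and 0.73, with adjusted p from 0.00764 to 0.0183.

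Of the remaining genes, F4/80 showed the largest change. Adgre1 (ENSMUSG00000004730, chr17:57358691-57483527, plus strand) was at 8.99 and 8.12 CPM in WT, 14.1 and 16.8 CPM in T1, and 16.5 and 16.03 CPM in T3, a log2 fold change of 0.85 ± 0.11 (adjusted p = 0.00187) and 0.93 ± 0.11 (adjusted p = 0.00108). Ptprc, the pan-leukocyte gene, was at 21.3 and 23.0 CPM in WT, 35.5 and 33.4 CPM in T1, and 32.4 and 31.4 CPM in T3. Its change in T3, 1.44-fold (adjusted p = 0.00265), missed only the fold threshold. Aif1 (ENSMUSG00000024397, chr17:35170991-35176068, minus strand) was at 2.20 and 1.84 CPM in WT, 3.08 and 3.61 CPM in T1, and 3.56 and 3.05 CPM in T3, with log2 fold changes of 0.73 ± 0.17 (adjusted p = 0.0251) and 0.71 ± 0.17 (adjusted p = 0.0243). Lyz2 did not pass in either mutant, at 17.2 and 16.9 CPM in WT, 17.4 and 22.3 CPM in T1, and 22.3 and 20.1 CPM in T3 (adjusted p = 0.321 and 0.132). Each mutant library of Lyz2 still lay above both controls. Reads of Lyz2 could be shared with its near-identical neighbour Lyz1, which was counted at 0 to 0.556 CPM across all libraries.

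The count for T1 depended on its library 2, which had the higher level of 9 of the 10 members in that group. Without it 3 members, C1qa, Adgre1 and Ptprc, were called in T1, and C1qb, C1qc, Tyrobp, Fcer1g and Aif1 no longer passed. Without T3 library 1, 5 members were called in T3, Tyrobp and Aif1 being lost. For fits that left out a library, here and below, the share of all genes called is not printed. A change in the member count can therefore not be told apart from a change over all genes. Aif1 missed the threshold in both mutants without WT library 2 or without either mutant library, at adjusted p values up to 0.176, and Ptprc was called in T3 without WT library 2 (adjusted p = 0.00229).

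Per kilobase of exon, the order in Six2 WT kidneys began with Lyz2 (12.9 ± 0.13 CPM per kb, SD, n = 2), C1qb (12.4 ± 0.24) and C1qa (11.3 ± 0.19). Csf1r (7.39 ± 0.36) and Tyrobp (6.58 ± 0.25) followed, then C1qc (5.66 ± 0.14) and Fcer1g (4.90 ± 0.44). Adgre1 (2.64 ± 0.19), Aif1 (1.32 ± 0.17) and Ptprc (1.21 ± 0.064) were lowest in level per length. Aif1 and Ptprc differed by less than the sum of their SDs, and no other neighbours in that order did. Ptprc, the last of them, has the most exon sequence, at 18313 bases. In both mutants C1qa and C1qb led instead, at 19.5 ± 2.0 and 19.8 ± 1.7 CPM per kb in T1 and 21.4 ± 3.0 and 21.3 ± 2.5 CPM per kb in T3, pairs that differed by less than their SDs. In Foxd1 WT whole kidneys the order per length was C1qb (15.3 ± 1.5 CPM per kb, SD, n = 3), Lyz2 (13.2 ± 1.4), C1qa (12.8 ± 0.30), Csf1r (7.97 ± 0.19) and C1qc (7.58 ± 0.57). Lyz2 was not separated by the SDs from C1qb or from C1qa, nor was Csf1r from C1qc. Ptprc was last there too, at 0.817 ± 0.065. In Six2 WT sorted cells at E18.5 Csf1r led per length, at 2.62 ± 0.45 CPM per kb, before C1qb at 1.37 ± 0.22. In Foxd1 WT sorted cells the leading genes, Lyz2 (36.9 ± 19 CPM per kb, n = 4), C1qb (35.9 ± 14), Fcer1g (28.8 ± 11) and Tyrobp (25.2 ± 11), lay within their SDs of each other.

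**Figure D1:**
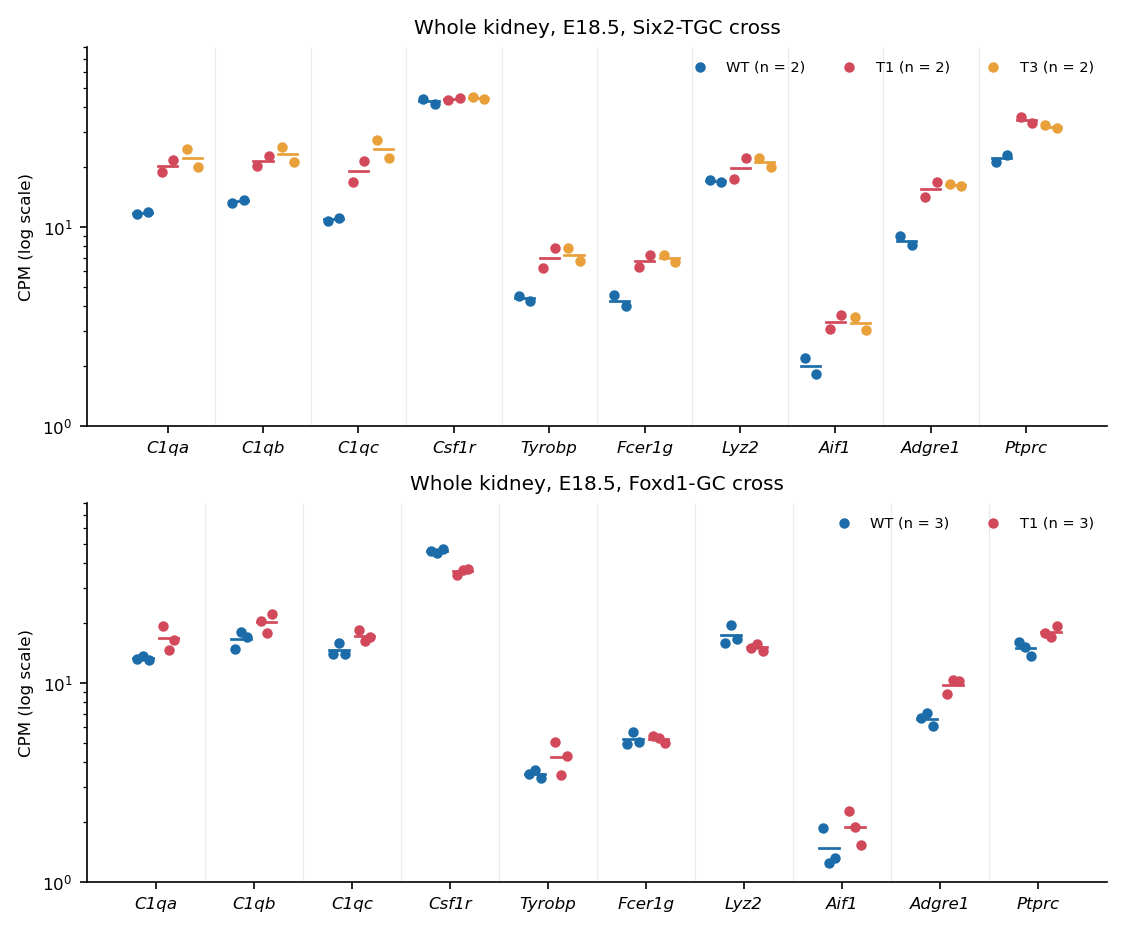
Level of each macrophage gene in every E18.5 whole-kidney library (CPM, log axis), by Cre line and genotype, with a bar at each group mean. In the Six2 line 9 of 10 genes have all T1 and all T3 libraries above both controls, compared with 17.6% of all genes tested, the exception being Csf1r. In the Foxd1 line 4 genes lie wholly above, 2 wholly below and 4 overlap, where 23.0% and 23.5% of all genes lie wholly above and below.

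In Foxd1-ENL T1 whole kidneys, where the mutation is in stromal cells, no member was called in either direction by edgeR or by DESeq2, against 2.65% of 20145 genes called higher and 7.53% called lower. At an adjusted p under 0.05 with no fold threshold, 5 members were higher and 1 lower, against 16.4% and 17.0% of genes, and at an unadjusted p under 0.05 5 were higher and 2 lower, against 21.1% and 21.9%. For 4 members every T1 library lay above every WT library and for 2 below, as for 23.0% and 23.5% of genes. Their median log2 difference was 0.27, and that of all genes was -0.00.

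F4/80 moved most. Adgre1 was at 6.70, 7.08 and 6.08 CPM in WT and 8.76, 10.3 and 10.3 CPM in T1, with no overlap and 1.48-fold (adjusted p = 0.00130). It passed the fold threshold without WT library 2 and without T1 library 1, and was then the 1 member called. C1qa was at 13.3, 13.6 and 13.01 CPM in WT and 19.2, 14.6 and 16.5 CPM in T1, a log2 difference of 0.33 ± 0.09 (adjusted p = 0.0155). C1qc (13.98, 15.9 and 14.03 CPM against 18.52, 16.2 and 17.0 CPM) and Ptprc (15.998, 15.2 and 13.7 CPM against 17.9, 17.1 and 19.3 CPM) also lay wholly above their controls, by 0.23 ± 0.08 and 0.27 ± 0.08 on the log2 scale. C1qb overlapped between groups, with 14.8, 18.1 and 17.0 CPM in WT and 20.5, 17.7 and 22.2 CPM in T1.

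Csf1r went the other way. It was at 45.7, 45.1 and 47.2 CPM in WT and 34.9, 36.8 and 37.5 CPM in T1, lower in all 3 mutant kidneys (log2 difference -0.34 ± 0.06, adjusted p = 0.000444). Hmgxb3 was at 46.0 to 49.3 CPM in these controls and 52.8 to 56.6 CPM in T1. Lyz2, at 15.9, 19.4 and 16.6 CPM in WT and 15.04, 15.7 and 14.54 CPM in T1, also lay wholly below, without passing (adjusted p = 0.0884). The adaptors and Aif1 overlapped. Tyrobp was at 3.51, 3.65 and 3.33 CPM in WT and 5.03, 3.45 and 4.32 CPM in T1, Fcer1g at 4.92 to 5.68 against 5.00 to 5.44 CPM, and Aif1 at 1.25 to 1.88 against 1.55 to 2.27 CPM.

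The difference between Cre lines was tested as an interaction over the 10 whole kidneys of WT and T1. The T1 effect was lower in the Foxd1 line for 3 members, against 3.55% of 22826 genes called lower, which were C1qc (-0.59 ± 0.16, adjusted p = 0.0332), Csf1r (-0.40 ± 0.08, adjusted p = 0.00928) and Fcer1g (-0.67 ± 0.17, adjusted p = 0.0294). All 10 estimates were negative, with a median of -0.41 where that of all genes was 0.01, and C1qa (-0.47, adjusted p = 0.0791) and Adgre1 (-0.31, adjusted p = 0.280) did not pass. No member was called without Six2-ENL T1 library 2, and 1 was without Foxd1 WT library 2 or T1 library 3. The lines were counted in separate tables and differ in driver, sex make-up and depth, which cannot be told apart.

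In sorted Six2 descendants at E18.5 the members were low in WT cells and much higher in T1. Of 10 members 9 rose, against 6.14% of 22685 genes called higher and 5.54% called lower, and the same number was called in each of the 6 fits that left out 1 of these libraries. The median log2 fold change was 2.79 where that of all genes was 0.02. For 9 members every T1 library lay above every WT library, as for 17.4% of all genes tested.

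C1qa was at 1.14, 1.27 and 0.909 CPM in WT and 11.0, 8.47 and 8.20 CPM in T1, a log2 fold change of 3.06 ± 0.18 (adjusted p = 8.57e-08). C1qb was at 1.67, 1.58 and 1.22 CPM against 11.4, 10.1 and 7.58 CPM, and C1qc at 1.36, 1.59 and 1.35 CPM against 10.1, 10.4 and 7.83 CPM. T1 library 3 was the lowest of its group for all 3 chains and still lay above every WT library. Lyz2 had the steepest difference, from 0.657, 0.331 and 0.923 CPM to 7.95, 7.71 and 6.88 CPM (3.57 ± 0.27, adjusted p = 6.29e-07). Adgre1 followed, from 0.556, 0.738 and 1.02 CPM to 7.49, 9.18 and 7.18 CPM (3.38 ± 0.22, adjusted p = 1.60e-07). Tyrobp went from 0.518, 0.293 and 0.114 CPM to 2.85, 3.02 and 2.48 CPM, and Fcer1g from 0.328, 0.458 and 0.426 CPM to 3.10, 2.84 and 2.81 CPM. These adaptors rose by 3.16 ± 0.38 and 2.86 on the log2 scale. Aif1 went from 0.291, 0.420 and 0.241 CPM to 1.66, 1.73 and 1.49 CPM (2.36 ± 0.30). Ptprc rose least, from 1.97, 2.74 and 1.85 CPM to 8.13, 6.75 and 5.02 CPM (1.61 ± 0.21, adjusted p = 8.98e-05).

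Csf1r was again the exception, and in WT cells it was the highest member per length. It was at 17.1, 16.1 and 12.2 CPM in WT and 20.2, 20.6 and 16.9 CPM in T1. The groups overlapped, at 0.36 ± 0.13 (adjusted p = 0.0754). Hmgxb3 was at 45.0 to 51.3 CPM in WT cells and 51.3 to 58.2 CPM in T1.

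Genes of some other cell types, but not all, moved with the members in these sorted cells. The red cell list summed to 107 to 211 CPM in WT and 1552 to 2275 CPM in T1, with 5 of 7 tested genes called higher. The stromal list summed to 284 to 526 CPM and 793 to 922 CPM, with 7 of 10 genes called higher and 2 lower. The neutrophil list was low, at 0.318 to 1.15 CPM and 1.02 to 6.68 CPM, with 1 of 3 tested genes, Csf3r (3.50), called higher. Endothelial genes summed to 67.5 to 80.2 CPM in WT and 52.4 to 68.2 CPM in T1, with 1 of 10 called lower. The nephron list fell from 4331 to 5018 CPM to 1241 to 1274 CPM, with 11 of 12 genes called lower and 1 higher. The part of carried-over cells in the member differences was not tested.

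**Figure D2:**
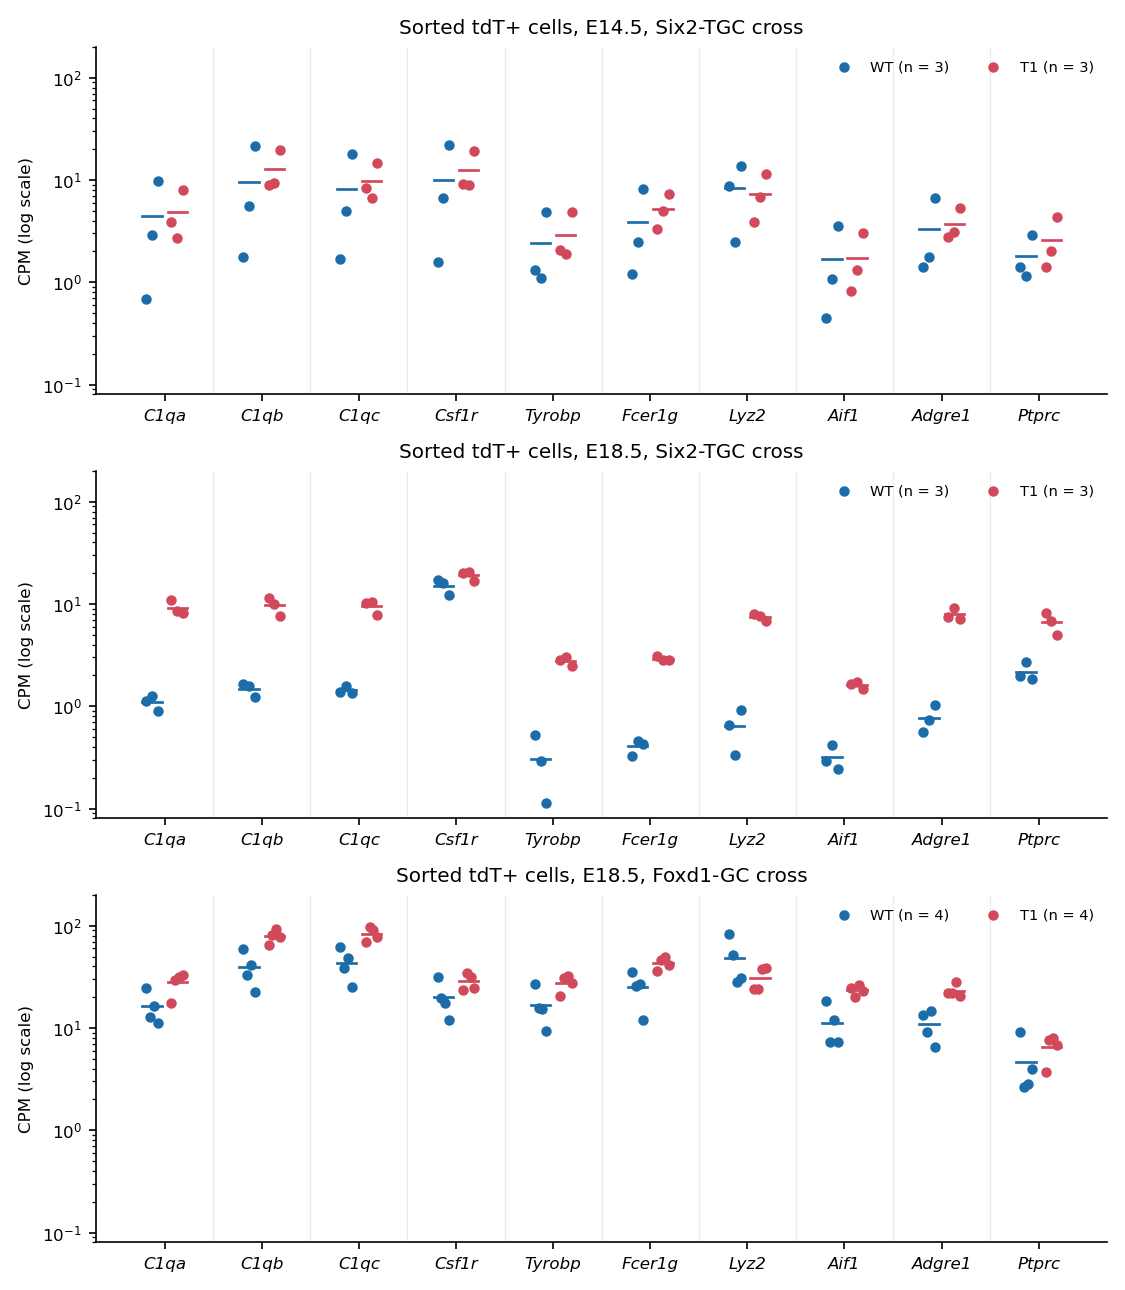
Level of each macrophage gene in every sorted library (CPM, log axis), by line, stage and genotype, with a bar at each group mean. At E18.5 in the Six2 line 9 of 10 genes lie wholly higher in T1, compared with 17.4% of all genes tested. At E14.5 all 10 overlap with library 3 of each genotype on top, and in Foxd1 sorted cells 5 of 10 lie wholly higher, compared with 8.11% of all genes.

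In Six2 sorted cells at E14.5 no member was called, against 4.11% of 22387 genes called higher and 2.28% called lower. All 10 overlapped between genotypes, where 14.7% of genes lay wholly higher and 17.4% wholly lower in T1. The adjusted p values ran from 0.545 to 0.975, and the standard errors were 0.47 to 0.77 on the log2 scale. The count was also 0 at an unadjusted p under 0.05, which 12.9% of genes passed higher and 13.2% lower, and with DESeq2. No difference was detectable at this spread.

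The spread lay between libraries of one genotype. C1qb was at 1.76, 5.52 and 21.4 CPM in WT and 8.96, 9.39 and 19.7 CPM in T1. C1qc (1.71, 4.97 and 17.8 CPM against 8.31, 6.62 and 14.7 CPM) and Csf1r (1.57, 6.70 and 21.8 CPM against 9.05, 8.98 and 19.3 CPM) had the same order of libraries in WT. Hmgxb3 was at 59.8 to 66.8 CPM in these WT cells and 61.7 to 63.1 CPM in T1. Library 3 was highest for 10 of 10 members in both genotypes. C1qa ran from 0.686 to 9.72 CPM in WT and from 2.71 to 7.92 CPM in T1, Fcer1g from 1.19 to 8.12 CPM and from 3.30 to 7.33 CPM, and Ptprc from 1.15 to 2.92 CPM and from 1.41 to 4.37 CPM. Among the 3 WT libraries the highest was 2.54 to 14.2 times the lowest across members, with a median of 7.29, where the median of all genes was 1.14 and the 95th percentile 1.70.

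Library 1 was the lowest WT library for 7 members and library 2 for Lyz2, Tyrobp and Ptprc. Lyz2 was at 8.79, 2.50 and 13.7 CPM in WT, Tyrobp at 1.32, 1.099 and 4.90 CPM and Ptprc at 1.396, 1.15 and 2.92 CPM, so that libraries 1 and 2 lay farthest apart for Lyz2 among these 3. Neutrophil genes summed to 22.9, 0.364 and 3.15 CPM in the same 3 libraries and to 0.278 to 3.30 CPM in T1. Red cell genes summed to 1.01, 39.3 and 104 CPM in WT and 61.5 to 105 CPM in T1, and stromal genes to 428 to 566 CPM in WT and 878 to 1783 CPM in T1. Their part in the member values was not tested. Leaving out WT library 3 raised the member median from 0.29 to 1.37 and gave 2 calls, Adgre1 (1.25, adjusted p = 0.0363) and Fcer1g (1.52, adjusted p = 0.0478).

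From E14.5 to E18.5 in WT sorted cells, 7 of 10 members fell, where 24.8% of 25222 genes were called higher and 20.6% lower (adjusted p under 0.01 and at least 2-fold). The largest drops were Lyz2 (-3.72 ± 0.57, adjusted p = 3.86e-05) and Fcer1g (-3.28 ± 0.58, adjusted p = 0.00014). Tyrobp fell by 2.96, C1qb by 2.68, C1qc by 2.50, Aif1 by 2.39 and Adgre1 by 2.095 on the log2 scale. C1qa (-1.999, adjusted p = 0.0153), Csf1r (0.59, adjusted p = 0.379) and Ptprc (0.26, adjusted p = 0.571) did not pass. Without E14.5 WT library 3, the library with the highest members, 4 fell and Csf1r was called higher (1.86, adjusted p = 0.00282). C1qb (-1.30), C1qc (-1.22) and Aif1 (-1.26) then missed the threshold. A count of 4 was also found without each of the E18.5 WT libraries in turn, and 8, with C1qa added, without E14.5 WT library 1. Stage and dissociation enzyme differ together here.

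The T1 effect differed between stages for 3 members, higher at E18.5 for Adgre1 (3.18 ± 0.69, adjusted p = 0.0112), Tyrobp (2.89 ± 0.82, adjusted p = 0.0448) and Lyz2 (3.75 ± 0.74, adjusted p = 0.00665), against 3.94% of 25222 genes called higher. The C1q chains, at 2.29 to 2.93 with adjusted p of 0.0672 to 0.138, did not pass, and Csf1r was at 0.04 ± 0.83. Without E14.5 WT library 1 the count was 8, with the share of all genes called in that fit not printed. Without E14.5 WT library 3 or E14.5 T1 library 1 or 2 Tyrobp dropped out and 2 remained.

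In sorted Foxd1 descendants at E18.5, 6 of 10 members rose in T1, against 3.63% of 12717 genes called higher and 2.18% called lower. Their median log2 difference was 0.76 where that of all genes was -0.00. For C1qb, C1qc, Fcer1g, Aif1 and Adgre1 every T1 library lay above every WT library, as for 8.11% of all genes tested.

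C1qb was at 59.4, 33.0, 41.5 and 22.4 CPM in WT and 65.0, 80.4, 92.9 and 77.2 CPM in T1 (0.99 ± 0.19, adjusted p = 0.00145). C1qc was at 61.7, 38.9, 48.8 and 24.95 CPM against 68.6, 98.1, 91.1 and 77.2 CPM (0.93 ± 0.18, adjusted p = 0.00169). WT library 1 came close to the lowest T1 library in both. C1qa overlapped, with 24.7, 12.9, 16.5 and 11.2 CPM in WT and 17.7, 29.2, 31.7 and 33.3 CPM in T1 (0.76 ± 0.22, adjusted p = 0.0321).

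Adgre1, at 13.3, 9.06, 14.51 and 6.51 CPM in WT and 21.8, 21.9, 28.1 and 20.4 CPM in T1, had the largest difference (1.08 ± 0.20, adjusted p = 0.00130). Aif1 was at 18.3, 7.31, 12.1 and 7.23 CPM against 24.7, 20.3, 26.3 and 22.9 CPM (1.04 ± 0.23, adjusted p = 0.00508). Fcer1g was at 35.6, 26.0, 27.0 and 11.9 CPM against 35.8, 46.5, 49.0 and 41.3 CPM (0.76 ± 0.20, adjusted p = 0.0179). Its highest WT library and lowest T1 library were nearly equal. Tyrobp, the other adaptor, was at 26.7, 15.8, 15.3 and 9.40 CPM against 20.7, 30.9, 32.4 and 27.5 CPM and just missed the threshold (0.70 ± 0.22, adjusted p = 0.0508). Csf1r (31.7, 19.6, 17.7 and 11.9 CPM against 23.6, 34.9, 31.3 and 24.6 CPM, adjusted p = 0.195) and Ptprc (9.17, 2.63, 2.82 and 3.98 CPM against 3.69, 7.64, 7.92 and 6.78 CPM, adjusted p = 0.508) overlapped.

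Lyz2 differed in sign from the rest, at 83.1, 51.7, 28.2 and 31.1 CPM in WT and 23.99, 23.9, 37.4 and 38.4 CPM in T1 (-0.69 ± 0.26, adjusted p = 0.11). Neutrophil genes summed to 116, 69.0, 30.6 and 22.4 CPM in the same WT libraries and to 6.64, 7.65, 61.6 and 60.1 CPM in T1. The 2 libraries with the higher Lyz2 in each genotype were the 2 with the higher neutrophil sums, and the part of those cells in Lyz2 was not tested. Lyz2 was called lower without WT library 3 (adjusted p = 0.0305) and without WT library 4 (adjusted p = 0.0359).

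WT library 1 was the highest of its group for 9 members and library 4 the lowest for 8. Without WT library 1 the number called higher was 9, with Tyrobp, Csf1r and Ptprc added. It was 4 without WT library 4, T1 library 2 or T1 library 3, where C1qa and Fcer1g dropped out. Shares of all genes called in these fits are not printed, so a looser test over all genes cannot be told apart. Each member rests on at most 299 reads a library here.

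**Figure D3:**
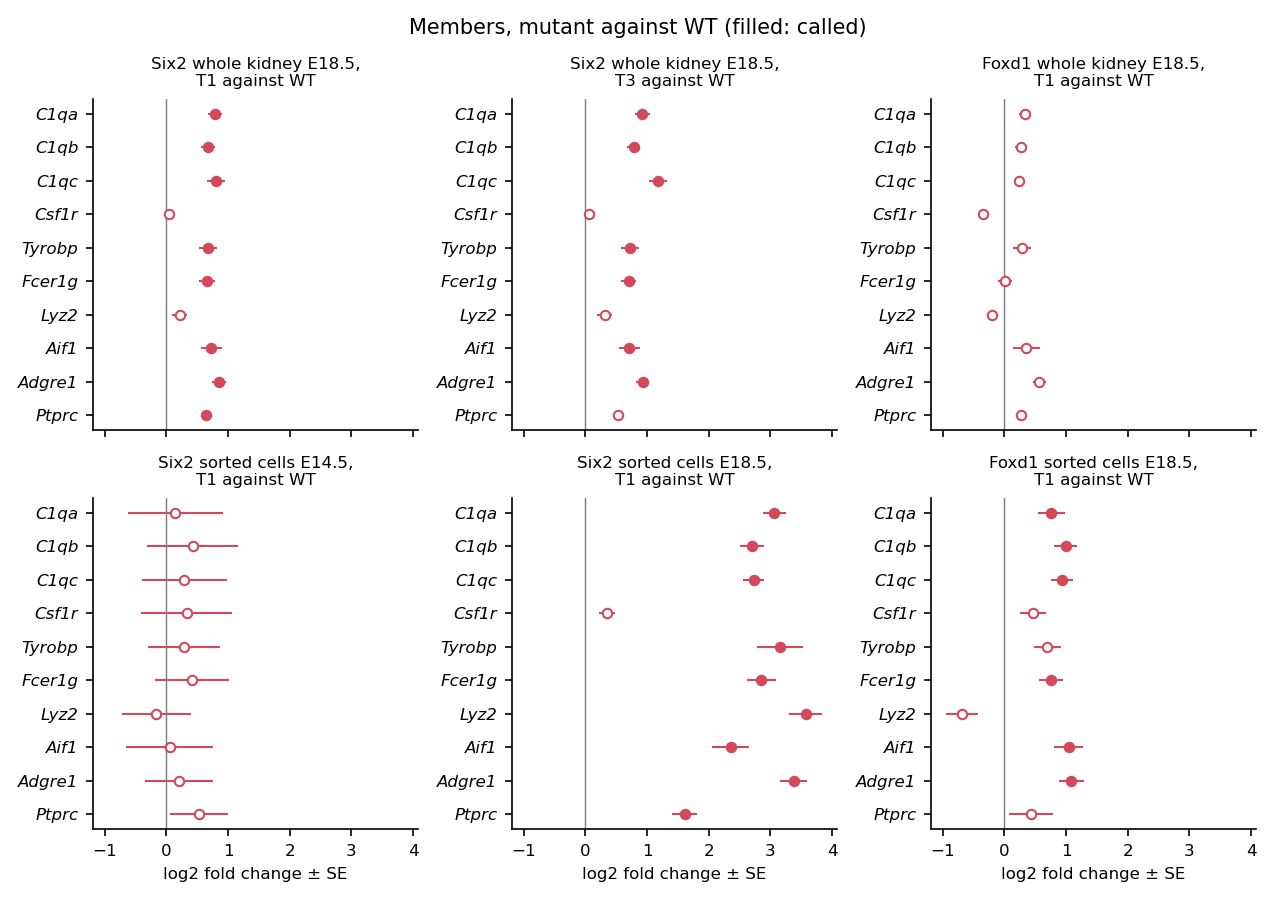
Log2 fold change of each macrophage gene with its standard error in the 6 comparisons of mutant with WT, with a line at 0 and filled points for called genes. In Six2 sorted cells at E18.5 9 of 10 genes lie between 1.61 and 3.57, while whole-kidney changes reach at most 1.18 and the standard errors at E14.5 are 0.47 to 0.77.

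The levels in sorted cells were set beside those in whole kidneys as a percentage. These ratios of group means cross tables made with different kits and scaled separately, so they are descriptions. In Six2 WT at E18.5 the members were at a median of 9.66% of their whole-kidney CPM, from 3.74% for Lyz2 and 7.01% for Tyrobp to 15.7% for Aif1 and 35.4% for Csf1r. In Six2-ENL T1 the median was 44.4%, from 19.3% for Ptprc to 51.5% for Adgre1, with C1qa at 45.5%, C1qb at 45.0% and C1qc at 49.5%. Endothelial genes, which should be lost in the sort, were at 5.81% in WT and 4.87% in T1. Red cell genes were at 3.66% in WT and 67.1% in T1, and stromal genes at 7.29% and 15.96%. The sorted share of members and of red cell genes was higher in T1 and that of endothelial genes was not. Nephron genes, the lineage sorted for, were at 137% and 117%.

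The Foxd1 sort gave another picture. The members were at a median of 257% of their whole-kidney CPM in WT and 314% in T1, from 31.1% for Ptprc and 44.0% for Csf1r to 480% for Tyrobp, 482% for Fcer1g and 757% for Aif1 in WT. C1qa was at 123%, C1qb at 235%, C1qc at 298%, Lyz2 at 280% and Adgre1 at 164% in WT. Stromal genes, the lineage sorted for, were at 142% in WT and 143% in T1. Endothelial genes were at 32.3% and 39.7%, red cell genes at 7.21% and 7.46%, nephron genes at 19.8% and 23.1%, and neutrophil genes at 517% and 584%. Most members were therefore higher in CPM in sorted than in whole Foxd1 kidneys in both genotypes. Sex, kit, depth and the genes counted (55471 IDs sorted, 54752 whole) differ along with the sort and cannot be told apart.

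**Figure D4:**
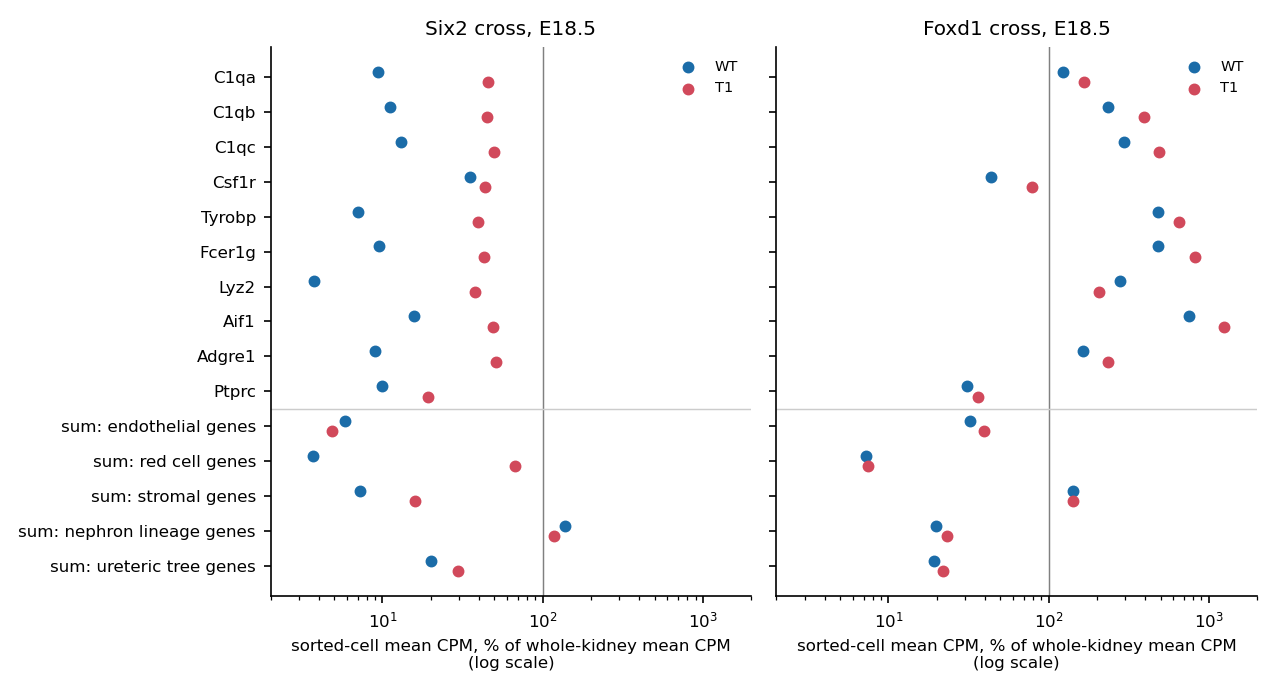
Level in sorted cells as a percentage of that in whole kidneys at E18.5 (ratio of group means, log axis) for each macrophage gene and for marker lists of other cell types, by line and genotype. Six2 WT members sit at a median of 9.66% and T1 members at 44.4%, while in the Foxd1 line the medians are 257% and 314%.

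Whether the T1 effect differed between sorted cells and whole kidneys was tested as an interaction within each line. Preparations differ in kit, depth and sex make-up, and in the Foxd1 line in genes counted, which cannot be told apart from the sort. In the Six2 line it was higher in sorted cells for 8 members, against 3.02% of 25371 genes called higher and 2.63% called lower. Lyz2 (3.32 ± 0.33, adjusted p = 6.19e-05), Adgre1 (2.49 ± 0.27, adjusted p = 0.00013) and Tyrobp (2.45 ± 0.45, adjusted p = 0.00551) differed most. C1qa was at 2.24, Fcer1g at 2.16, C1qb at 1.99, C1qc at 1.89 and Aif1 at 1.59, all called. Csf1r (0.28, adjusted p = 0.491) and Ptprc (0.94, adjusted p = 0.0579) did not pass, although Ptprc was called without sorted T1 library 3 or sorted WT library 2. The median was 2.08, and 0.03 for all genes.

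In the Foxd1 line the effect was higher in sorted cells for 4 members, against 9.0% of 14723 genes called higher. They were Csf1r (0.83 ± 0.22, adjusted p = 0.0121), C1qc (0.73 ± 0.21, adjusted p = 0.0217), C1qb (0.75 ± 0.23, adjusted p = 0.0280) and Fcer1g (0.79 ± 0.25, adjusted p = 0.0341). That count moved with single libraries. It was 7 without sorted WT library 1, and 1 without sorted WT library 2 or sorted T1 library 2. It was 2 without whole-kidney WT library 2 or sorted T1 library 3 or 4. Shares of all genes called in these fits are not printed. Adgre1, which had the largest whole-kidney difference, did not pass (0.56, adjusted p = 0.111).

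The ratio of 2 members within a library does not depend on the library's total. For Csf1r to C1qb in CPM it was 3.17 in Six2 WT whole kidneys, 2.05 in T1 and 1.92 in T3, and 2.79 and 1.82 in Foxd1 WT and T1 whole kidneys. In Six2 sorted cells it was 1.04 (0.889 to 1.21) in WT and 0.982 in T1 at E14.5. At E18.5 it was 10.1 (9.96 to 10.3) in WT and 2.02 (1.78 to 2.23) in T1, and in Foxd1 sorted cells 0.521 and 0.363. Csf1r was thus out of proportion to C1qb in Six2 WT sorted cells at E18.5, the group in which its ratio was highest.

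For Lyz2 the ratio to C1qb was 2.03 (0.453 to 4.99) in E14.5 WT cells, and 1.26 and 0.392 in Foxd1 WT and T1 sorted cells. Ptprc to C1qb was 1.64, 1.61 and 1.38 in Six2 WT, T1 and T3 whole kidneys and 0.908 and 0.901 in Foxd1 whole kidneys. In sorted cells it was 0.379 and 0.198 at E14.5 and 1.48 and 0.683 at E18.5 in Six2 WT and T1, and 0.120 and 0.0812 in Foxd1 WT and T1. Ptprc was lower against C1qb in each sorted group than in E18.5 whole kidneys of the same line and genotype, by the least in Six2 WT at E18.5. Sorted and whole libraries were made with different kits, whose part in this was not tested.

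**Figure D5:**
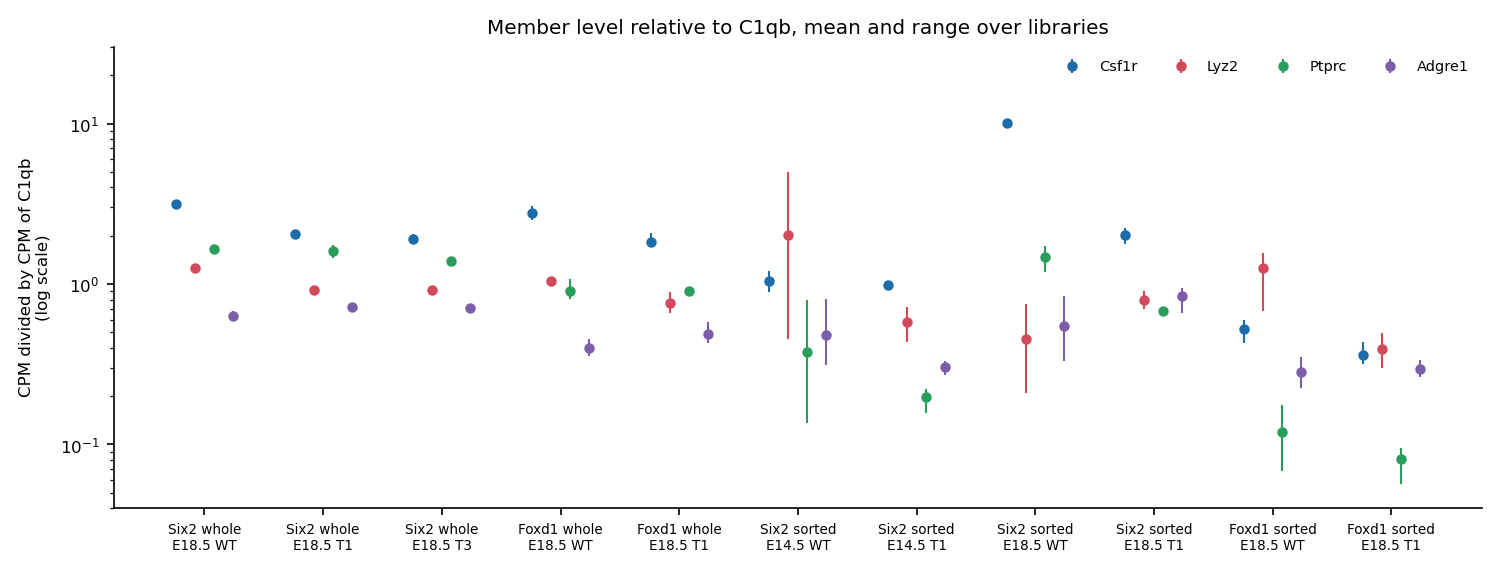
Ratio of Csf1r, Lyz2, Ptprc and Adgre1 to C1qb in CPM (log axis) in each group, as the mean over libraries with a bar from the lowest to the highest library. Csf1r stands at 9.96 to 10.3 in Six2 WT sorted cells at E18.5 and between 1.78 and 2.23 in T1, and Ptprc is lowest in Foxd1 sorted cells.

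Of 24 other macrophage genes, 10 rose and none fell in Six2-ENL T1 whole kidneys, 13 rose and none fell in T3, and 1, Trem2 (0.79), rose in Foxd1-ENL T1. Of all genes 2.88%, 4.34% and 2.65% were called higher in these comparisons, in that order. In Six2 sorted cells at E18.5 15 rose, against 6.14% of all genes. Cx3cr1, the fractalkine receptor (0.341 to 0.713 CPM in WT and 4.36 to 6.16 CPM in T1, 3.35), and Pf4 (3.16) led. Spi1, the gene of PU.1, was at 0.241 to 0.509 CPM in WT and 2.104 to 2.27 CPM in T1. The 1 gene that fell, Mertk (-1.71), an engulfment receptor that epithelial cells express as well, was at 58.3 to 64.7 CPM in WT and 16.6 to 21.1 CPM in T1. At E14.5 1 of 23 tested genes, Mertk (0.68), rose, near the share of all genes called higher, 4.11%. In Foxd1 sorted cells 7 of 17 rose and none fell, against 3.63% of all genes called higher. From E14.5 to E18.5 in WT, 5 of the 24 rose and 6 fell, near the shares of all genes called higher (24.8%) and lower (20.6%). Of 7 monocyte genes, Plac8 alone rose in Six2-ENL T1 (0.62) and T3 (0.66) whole kidneys. In Foxd1-ENL T1 whole kidneys Vcan rose (0.68) and Ccr2 fell (-0.85). In Six2 sorted cells at E18.5 F13a1 (2.08) and Plac8 (0.72) rose, and Vcan (-0.55) missed the fold threshold. At E14.5 Vcan fell (-0.62). In Foxd1 sorted cells F13a1 (1.11) and Vcan (0.61) rose and Plac8 did not pass. The other genes of the list were not tested in these E18.5 sorted cells. For this list and those below, the shares of all genes called are those given above for each comparison.

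The T1 effect on class II histocompatibility genes, except H2-Ab1, differed between whole kidneys and sorted cells of the Six2 line. Cd74, the invariant chain, was at 4.05 to 4.57 CPM in Six2 WT kidneys, 17.6 to 19.8 CPM in T1 and 15.4 to 22.1 CPM in T3, rising by 2.12 in both on the log2 scale. H2-Aa rose by 1.79 and 1.66, and 3 of 4 genes were called in T1 and 4 of 4 in T3. In sorted cells at E18.5 the list stood at 28.1 to 28.8 CPM in WT and 28.5 to 29.0 CPM in T1 in sum. None of 4 was called higher (1 at an unadjusted p under 0.05) and H2-Eb1 fell (-1.07). H2-Ab1, the highest of the list there, was higher in T1 by 0.26 (adjusted p = 0.0476) and missed only the fold threshold. At E14.5 3 of 4 fell. The preparation interaction in the Six2 line was negative for Cd74 (-2.03, adjusted p = 0.000363), H2-Aa (-2.53, adjusted p = 0.00023) and H2-Eb1 (-2.10, adjusted p = 0.000363). H2-Ab1 did not pass (-0.28, adjusted p = 0.305). All 10 members had positive estimates, 8 of them called. In Foxd1-ENL T1 whole kidneys Cd74 (0.84) and H2-Aa (0.66) rose.

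Ligands of Csf1r and macrophage chemokines formed another list. By edgeR none of its 10 tested genes was called in either Six2 mutant in whole kidneys, although 6 in T1 and 5 in T3 had an unadjusted p under 0.05, all higher, and DESeq2 called 5 and 2. The medians were 0.89 in T1 and 0.69 in T3. In Six2 sorted cells at E18.5 7 of 11 rose and 1 fell. Ccl3 went from 2.80 to 4.48 CPM in WT to 14.53 to 22.7 CPM in T1 (2.36) and Ccl4 from 1.82 to 3.82 CPM to 11.6 to 17.8 CPM (2.38), and both are chemokines that activated macrophages release. Ccl2, the monocyte attractant, went from 1.29 to 1.89 CPM to 6.45 to 7.57 CPM (2.1), and Cxcl12 fell (-1.30). In Foxd1 sorted cells 4 of 8 rose, led by Ccl7 (1.79) and Ccl2 (1.63), and Cx3cl1 fell (-0.63). Csf1, the main Csf1r ligand, was at 20.8 to 30.04 CPM in Six2 WT sorted cells at E18.5 and 22.4 to 23.2 CPM in T1. Il34, the other ligand, rose in Foxd1-ENL T1 whole kidneys, from 1.97 to 2.70 CPM to 5.22 to 6.01 CPM (1.3), as did Ccl2 (1.42), which was at 0.0803 to 0.303 CPM and 0.425 to 0.511 CPM. Levels of Ccl3 and Ccl4 in sorted cells exceeded those in whole kidneys of the same genotype in both lines, for example Ccl4 at 0.0669 to 0.132 CPM in Foxd1 WT whole kidneys and 33.0 to 91.4 CPM in sorted cells.

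Of 10 signalling partners of the adaptors, 2 rose in Six2-ENL T1 whole kidneys, Lcp2 (0.89) and Vav1 (0.91), and 2 in T3. In Six2 sorted cells at E18.5 4 rose, led by Vav1 (3.43) and Btk (2.83), and in Foxd1 sorted cells 1 of 8, Syk (0.81). Of the complement genes beyond C1q, the anaphylatoxin receptors C3ar1 (0.89) and C5ar1 (0.66) rose in Six2-ENL T1 whole kidneys, and C3ar1 (2.69) and C5ar1 (2.51) in sorted cells at E18.5. C1ra (-1.11) and C1s1 (-1.04), the proteases that bind C1q, fell there. These proteases and the C1q chains went opposite ways in those cells.

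Lists of other blood and vessel cells were read in whole kidneys for comparison. Some lymphocyte genes rose in the Six2 line, but Lck (0.11 and 0.15 in T1 and T3), Cd79a and Trbc2 were called in neither mutant. The list summed to 11.6 to 11.99 CPM in WT, 14.41 to 14.7 CPM in T1 and 14.1 to 14.9 CPM in T3. Of 6 tested genes 1 was called higher in T1 and 2 in T3, with 3 higher in each at an unadjusted p under 0.05. Lck and Cd79b, the highest of the list, were also counted in Six2 WT sorted cells at E18.5, at means of 5.19 and 2.77 CPM. Cd79b, of the B cell receptor, was called in T1, at 3.50 to 3.64 CPM in WT and 5.27 to 5.58 CPM in T1. Ms4a1 (CD20) and Cd3g, of the T cell receptor complex, were called in T3 on few reads, Ms4a1 with 1 to 4 a library in WT, 11 to 13 in T1 and 17 to 25 in T3, and Cd3g with 0 to 1, 9 to 13 and 4 to 15. The part of lymphocytes in Ptprc and the other shared members was not tested. None of 5 mast cell or 5 dendritic cell genes was called in either Six2 mutant by edgeR or DESeq2, with 1 mast cell gene lower in each and 1 dendritic cell gene lower in T1 at an unadjusted p under 0.05 by edgeR.

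None of 10 endothelial genes was called in either Six2 mutant by edgeR or DESeq2, with 2 in T1 and 1 in T3 lower at an unadjusted p under 0.05 by edgeR, and with sums of 1251 to 1298 CPM in WT, 1186 to 1240 CPM in T1 and 1157 to 1254 CPM in T3. Red cell genes summed to 3878 to 4393, 2354 to 3032 and 3408 to 6164 CPM with none of 7 called by either tool, and 4 lower in T1 at an unadjusted p under 0.05 by edgeR. In Foxd1-ENL T1 whole kidneys 5 of 7 neutrophil genes fell. Nephron genes summed to 3382 to 3415 CPM in Six2 WT, 1012 to 1133 CPM in T1 and 956 to 1053 CPM in T3. CPM are shares of a library. The scaling centres most genes near no difference. The medians over all genes, -0.01 in T1 and -0.00 in T3, therefore cannot show whether shares shifted.

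The genes whose pattern was most like the mean of the members over the 12 whole-kidney libraries, out of 15041, were Laptm5 (Pearson r 0.989), Tmem86a (0.979), Cd74 (0.967), Tcp11l2 (0.967), Mpeg1 (0.967), Klhl5 (0.965), Fam198b (0.964), H2-Eb1 (0.962), Ms4a7 (0.962) and Csnk1e (0.961). Values were log2 CPM centred within each line, and the libraries share their tables and controls. Over the 6 Foxd1 libraries alone, Laptm5 was at 0.939 and Mpeg1 at 0.711. Among the members themselves C1qa was closest to the mean (0.981) and Lyz2 (0.546) and Csf1r (-0.137) farthest. Csf1r was at 0.693 within the Six2 line and -0.937 within the Foxd1 line.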

How the data were processed

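RNA of mouse embryonic kidneys was sequenced by the authors with the KAPA stranded kit (whole kidneys) or the SMART-Seq v4 kit (sorted cells). The deposited values are raw counts of reads per Ensembl gene, 1 table per line and preparation, and the submitters' processing notes name bcl2fastq, HISAT2, HTSeq, edgeR and mm10. HTSeq was run without strand by the authors, and the gene annotation release is not given in the sources used here. All value columns were matched to samples by their titles, and 0 were left without a sample.

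Symbols, coordinates and exon lengths came from GENCODE vM21 on GRCm38, and promoter windows from RefSeq. Groups came from the sample titles and genotypes. The libraries of each fit were filtered with filterByExpr (minimum count 10, total 15) and scaled by TMM. Tests used edgeR 4.0.16 in R 4.3.3 (glmQLFit, glmQLFTest), with Benjamini-Hochberg adjustment over all genes tested. Thresholds were 0.05 and 1.5-fold, or 0.01 and 2-fold between stages, and 0.05 with no fold threshold for interactions. Whole-kidney groups of the Six2 line were fitted together. CPM use TMM-scaled library sizes. For CPM the tables were scaled separately, so levels set across them are descriptions. Interactions between preparations or Cre lines joined the tables concerned, which were filtered and scaled together for that fit. Alternatives were DESeq2 1.42.0, other scalings, no filter, a replicate block and leaving out each library. Scripts were tested on simulated data. Depth was 106005614 to 157266455, 67137194 to 79343015, 76510702 to 137888792 and 2557443 to 3508381 counts per library in the 4 tables, and the lowest member count was 7. The standard errors printed give the precision of each difference.

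The members, the gene lists and the tests were chosen with earlier results of these data known. Text names the 10 members, genes of fixed lists whose levels are compared, called genes of a list with the largest changes, and the 10 genes with the most similar pattern (Pearson r, log2 CPM with a prior count of 2, at least 1 CPM). Plots used matplotlib 3.10.9 and tables pandas 2.3.3.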

Additional observations from a re-analysis of the deposited data

Results flagged for a closer look

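The T1 effect differed between groups in 18 tested values, each an interaction on the log2 scale. Between stages of Six2 sorted cells it was higher at E18.5 for Adgre1 (3.18), Tyrobp (2.89) and Lyz2 (3.75).

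Between preparations in the Six2 line at E18.5 it was higher in sorted cells than in whole kidneys for 8 genes, Adgre1 (2.49), Aif1 (1.59), Tyrobp (2.45), C1qa (2.24), C1qc (1.89), C1qb (1.99), Fcer1g (2.16) and Lyz2 (3.32). In the Foxd1 line it was higher in sorted cells for Csf1r (0.83), C1qc (0.73), C1qb (0.75) and Fcer1g (0.79).

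Between Cre lines in whole kidneys it was lower in the Foxd1 line for Csf1r (-0.40), C1qc (-0.59) and Fcer1g (-0.67). No member of the Foxd1 sorted groups of 4, the only groups large enough to be searched for a library far from the others, held such a library.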

How the results depend on the processing

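The counts of members called were recomputed under other tools, scalings, filters and subsets of libraries. For most of these settings, here and above, the share of all genes called is not printed. A larger member count can therefore not be told apart from a looser test over all genes. At an adjusted p under 0.05 with no fold threshold, Foxd1-ENL T1 whole kidneys had 5 members higher and 1 lower. With no low-count filter 1 member, Lyz2, was lower in Foxd1 sorted cells and 1 in the Foxd1 preparation interaction. The stage interaction gave 5 members with DESeq2 and 8 with no filter, and the Cre line interaction 5 lower with DESeq2 and 7 with no filter. Csf1r, whose stage interaction was 0.04, was at -0.00158 with DESeq2, -0.00224 with RLE size factors and -0.016 with no filter.

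Same-numbered libraries of different groups correlated in their deviations at -0.20 to 0.309 over 17 pairs and 5 of them best with their own number, so the numbers were not read as pairs. With the number as a replicate block, 8 members were called in Six2-ENL T1 whole kidneys, 7 in T3, 9 in Six2 and 7 in Foxd1 sorted cells at E18.5, none in the Foxd1 whole kidneys or at E14.5, and 5 in the stage interaction, where Csf1r was at -0.48.

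Leaving out 1 library at a time, the number of members called higher ranged from 3 to 8 in Six2-ENL T1 and 5 to 7 in T3 whole kidneys, 0 to 1 in Foxd1 whole kidneys, 0 to 2 at E14.5, 9 to 9 in Six2 sorted cells at E18.5 and 4 to 9 in Foxd1 sorted cells, with 0 to 1 lower there. It was 4 to 8 lower and 0 to 1 higher between stages, 2 to 8 for the stage, 7 to 9 for the Six2 preparation and 1 to 7 for the Foxd1 preparation interaction, and 0 to 4 lower for the Cre line. At E14.5 the log2 fold changes crossed 0, between -0.16 and 1.25 for Adgre1, -0.64 and 1.19 for Aif1, -0.41 and 1.45 for C1qa, -0.069 and 1.81 for C1qb, -0.19 and 1.58 for C1qc, -0.18 and 1.60 for Csf1r, -0.013 and 1.52 for Fcer1g, -0.63 and 0.40 for Lyz2, -0.071 and 1.05 for Ptprc, and -0.28 and 1.29 for Tyrobp. So did Fcer1g in Foxd1 whole kidneys (-0.033 to 0.077), Csf1r in the stage interaction (-1.24 to 0.54) and Ptprc in the Foxd1 preparation interaction (-0.057 to 0.84). The causes were not tested.

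Library size in place of TMM moved the calls over all genes from 995 higher and 1064 lower to 1268 and 882 for the stage interaction, and from 1325 and 927 to 1123 and 1371 for the Foxd1 preparation interaction. It moved the median of all genes to 0.11 in Six2 sorted cells at E18.5 and -0.12 between stages, and RLE moved the latter to 0.15. No member changed sign under these scalings except Csf1r as given above. All 40 sorted to whole ratios moved by less than the spread between libraries, and 5 of the 10 most similar genes were less alike in the Foxd1 libraries alone, with r down to 0.657. Standard errors of the member differences were 0.47 to 0.77 at E14.5, where libraries of a genotype spread widely, and at most 0.17 in Six2 whole kidneys.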
